A study of Mus musculus with 2 samples.

Results

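C1q macrophages low in Gpnmb were the cells of a mouse breast tumour library that carried RNA of the complement component C1q and little RNA of Gpnmb, Lpl and Mmp12. They were chosen by their measured counts of unique molecular identifiers (UMIs, one for each captured RNA molecule). A cell had to have over 200 detected genes, at most 5% mitochondrial UMIs, at least 5 UMIs of C1qa, C1qb and C1qc together, and under 5 of Gpnmb, Lpl and Mmp12 together. It also had to have at most 1 UMI of Cd3d, Cd3e and Cd3g, under 30 of Krt8 and Krt18, and under 10 of Col1a1 and Col3a1. These limits were set against T cells, cancer cells and fibroblasts. Of 9989 primary tumour cells past the limits on genes and mitochondrial UMIs, 123 met the rule, a share of 1.23% [1.02 to 1.47]. The series held 24044 cells as deposited, 12427 of them in the primary tumour library.

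Single-cell RNA was measured in primary tumours and in paired lymph nodes from C57BL/6J mice bearing EO771-HEVM3 tumours. EO771 is a breast cancer cell line of the mouse, and the HEVM3 derivative came out of 3 rounds of selection in mice for cells that reach the lung by way of high endothelial venules. Each tissue was 1 droplet library of 3′ UMI counts pooled from 6 mice, with no label that ties a cell to a mouse. All groups described here came from the same tumour library and shared this genotype and tumour, so differences between groups could not be checked in replicates and were not tested.

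C1q is the recognition part of the classical complement pathway, and its A, B and C chains are made mainly by macrophages in tissues. Macrophages rich in C1q are a regular component of mouse and human tumours and often carry scavenger receptors such as the mannose receptor Mrc1 and chemokines such as Ccl8. Gpnmb, Lpl and Mmp12 mark macrophages that handle lipid and debris, and many C1q macrophages carry both programmes.

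The C1qa, C1qb and C1qc genes lay next to each other on the minus strand of chromosome 4, at chr4:136895917-136898803, chr4:136880129-136886187 and chr4:136889804-136893065 (GRCm38, GENCODE M21). Mrc1 lay at chr2:14229392-14332057 and Ccl8 at chr11:82115185-82116799, both on the plus strand, and all 5 are protein-coding. The 250 bases before the RefSeq start site (GRCm38.p6) are shown for the marker genes that have an entry in the promoter table, since these genes were found together in the same cells. C1qa had no entry. For C1qc and Mrc1 the RefSeq and GENCODE start sites differ, so their stretches lie partly inside the gene spans given above. Each sequence runs 5′ to 3′ on the strand of its gene, and capitals mark GAGGAA or its reverse complement TTCCTC, the core letters bound by PU.1, the transcription factor of the myeloid lineage.
C1qb promoter, chr4:136886201-136886450, minus strand: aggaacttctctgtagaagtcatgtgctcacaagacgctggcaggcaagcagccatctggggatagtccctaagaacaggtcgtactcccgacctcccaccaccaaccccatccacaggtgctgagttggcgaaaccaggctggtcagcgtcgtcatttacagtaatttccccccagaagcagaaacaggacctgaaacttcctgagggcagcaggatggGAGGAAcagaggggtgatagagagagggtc
C1qc promoter, chr4:136892915-136893164, minus strand: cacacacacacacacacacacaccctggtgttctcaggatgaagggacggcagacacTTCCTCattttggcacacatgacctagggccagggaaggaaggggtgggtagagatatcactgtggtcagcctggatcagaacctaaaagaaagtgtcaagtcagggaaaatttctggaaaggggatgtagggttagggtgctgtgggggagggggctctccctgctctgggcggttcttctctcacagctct
Mrc1 promoter, chr2:14229164-14229413, plus strand: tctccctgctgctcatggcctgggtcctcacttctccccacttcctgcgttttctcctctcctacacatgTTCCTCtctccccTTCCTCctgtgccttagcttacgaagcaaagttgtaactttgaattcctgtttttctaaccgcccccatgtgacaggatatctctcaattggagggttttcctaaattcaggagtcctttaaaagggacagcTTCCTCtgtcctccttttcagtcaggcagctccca
Ccl8 promoter, chr11:82114935-82115184, plus strand: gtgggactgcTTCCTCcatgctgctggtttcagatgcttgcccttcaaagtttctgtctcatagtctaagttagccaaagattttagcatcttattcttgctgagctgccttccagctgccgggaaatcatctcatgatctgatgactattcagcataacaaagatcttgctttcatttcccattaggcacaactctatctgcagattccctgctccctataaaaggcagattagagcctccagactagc
The letters occurred 1 time each for C1qb, C1qc and Ccl8 and 3 times for Mrc1, and in 23.3% of 32851 promoters of that length on either strand. For C1qb the match began 30 bases before the start site (position -30). Among other promoters searched, those of Gpnmb, Folr2 and Cd163 held none of these letters, and those of Trem2, Pf4, Stab1 and 1 of the start sites of Mmp12 held 1 match each. These matches describe the letters only and show no binding.

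The 123 cells held 485247 UMIs, with a lowest, median and highest depth of 731, 3409 and 13104 UMIs per cell and a median of 1371 detected genes. The C1q genes chose the cells, so their values are given as a description. Of the cells, 98 had UMIs of all 3 C1q genes, 21 of 2 genes and 4 of 1 gene. The summed C1q count had a median of 10 UMIs and a highest value of 85, and 53 cells had 5 to 9 UMIs while 70 had 10 or more. C1q made up 0.0382% to 1.54% of a cell's UMIs, with a median of 0.355%. Levels below are the UMIs of a gene per 1000000 UMIs (CPM), summed over the cells of a group, with exact 95% Poisson intervals in brackets that cover counting error only. C1qa was at 1556 CPM [1447 to 1671], C1qb at 1222 CPM [1126 to 1324] and C1qc at 756 CPM [681 to 838]. The C1q UMIs divided as 44.0% C1qa, 34.6% C1qb and 21.4% C1qc, close to the 42.7%, 35.4% and 21.9% in C1q macrophages high in Gpnmb.

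Other groups of the tumour library were set side by side with the 123 cells. The C1q macrophages high in Gpnmb (Gpnmb-high cells) met the same rule except for 5 or more UMIs of Gpnmb, Lpl and Mmp12, and numbered 156. Tumour monocytes (168 cells) had at most 1 C1q UMI, under 5 UMIs of the Gpnmb genes, at least 5 of Lyz2, at least 5 of Ly6c2, Plac8 and Chil3, and under 20 of the neutrophil genes S100a8 and S100a9. Gpnmb-high cells poor in C1q (C1q-poor cells, 175) had under 5 C1q UMIs and at least 5 UMIs each of the Gpnmb genes and of Lyz2, and were added after the data were seen. The T cell, keratin and collagen limits held for these groups too. T cells (379) and cancer cells (5317) from the same library gave the level of a gene in cells that should lack it. Median depths were 3409 UMIs in the cells under study, 5404.5 in the Gpnmb-high cells, 2384.5 in the monocytes, 4606 in the C1q-poor cells, 2202 in the T cells and 20280 in the cancer cells.

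**Figure D1:**
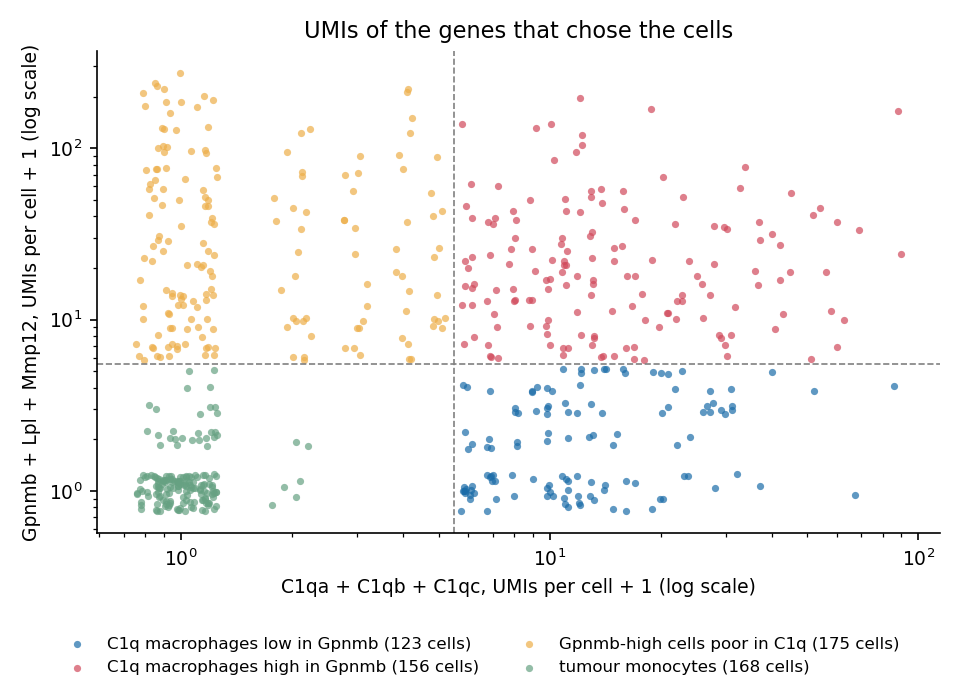
UMIs of the 3 C1q genes (horizontal) and of Gpnmb, Lpl and Mmp12 (vertical) in single cells of 4 groups, each plus 1 and on log scales, with points shifted slightly at random to show overlap; dashed lines mark the limits of 5 UMIs. The 123 cells low in Gpnmb fill the lower right and run up to both limits without a gap.

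The rule cut through cells with neighbouring counts on both sides of each limit. At the C1q limit, 17 cells had exactly 5 C1q UMIs and 19 cells that met all other limits had 4. At the other limit, 13 cells had 4 UMIs of Gpnmb, Lpl and Mmp12, while 11 cells outside had 5. Of the 123 cells, 57 had none of these 3 genes. The 17 cells at the C1q limit had an Mrc1 level of 269 CPM and the 19 just outside one of 392 CPM. Apoe was at 1271 CPM in the first and 685 in the second, and Ly6c2, a monocyte gene, at 71.6 and 313. The 13 cells at the Gpnmb limit had an Mrc1 level of 754 CPM and the 11 just outside one of 845 CPM, while Ccl8 was at 1011 and 2791 CPM. Among 279 C1q macrophages past the T cell, keratin and collagen limits, 44.1% were on the low side of the Gpnmb limit. Gpnmb was at 78.3 CPM in the cells under study and 691 in the Gpnmb-high cells, Lpl at 163 and 1048, and Mmp12 at 78.3 and 3021, all set by the rule.

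Checked against genes that the rule did not use, the cells carried macrophage RNA. Adgre1, which encodes F4/80, was at 210.2 CPM [171 to 255] and was found in 56 cells, against 11.3 CPM in T cells and 0.855 in cancer cells. Csf1r, the receptor for macrophage growth factor, was at 284 CPM [239 to 336] and found in 75 cells. Aif1 and Cd68 were at 451 and 202 CPM, against 13.5 and 15.8 in T cells. Fcgr1, a receptor for IgG, was at 105 CPM [78.3 to 138] and had 4 UMIs in T cells. Mertk, a receptor for dying cells, was scarce at 22.7 CPM [11.3 to 40.6]. All 15 genes of the macrophage list had UMIs in these cells. The list did not set them apart from the monocytes by its sum, 14009 CPM against 13977. Of its 12 genes with 50 UMIs against monocytes, 5 were at least 2-fold higher, beside 6.90% of all genes. Cd14 was at least 2-fold lower, beside 8.23% of all genes, and Csf1r had a log2 ratio of -0.34 [-0.68 to -0.01].

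The marker genes Mrc1 and Ccl8 were present, in different shares of the cells. Mrc1 had UMIs in 86 of the 123 cells, with a median of 2 and a highest value of 15 UMIs, and its level was 818 CPM [739.6 to 903]. Ccl8 had UMIs in 52 cells, with a median of 0 and a highest value of 57, and its level was 1377 CPM [1274 to 1485]. Thinned to 1000 UMIs per cell, with 2 shallower cells left out, 45.9% [36.8 to 55.2] of cells had an Mrc1 UMI and 34.4% [26.0 to 43.6] a Ccl8 UMI. The same shares were 1.20% and 1.43% in T cells and 2.06% and 1.65% in monocytes; unthinned, they were 69.9% and 42.3% in the cells under study and 2.90% and 3.17% in T cells. Of the 52 cells with Ccl8, 47 also had Mrc1, and 32 cells had neither gene.

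These 123 cells held 0.310% of the UMIs of the library's cells past the limits, and the Gpnmb-high cells 0.595%. They carried 28.3% of the C1qa UMIs, a share set by the rule, and the Gpnmb-high cells 45.7%. They carried 25.2% of the Mrc1 UMIs and 19.1% of the Ccl8 UMIs, against 36.3% and 40.8% in the Gpnmb-high cells. Of Clec10a, a lectin of macrophages and dendritic cells, they carried 32.2% and the Gpnmb-high cells 21.6%. Cd163, a receptor for haemoglobin bound to haptoglobin, had only 27 UMIs in the library, and 19 of them came from these cells. Of these 19, 9 came from 1 cell.

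RNA of other cell types was low but present. T cell and natural killer cell genes Trac, Cd2, Cd8a, Lck, Nkg7, Ncr1, Klrb1c and Gzmb were at 0, and the 10-gene list summed to 20.6 CPM, against 3870.3 in T cells. B cell genes Cd79a, Ms4a1 and Iglc2 were at 0, as were the dendritic cell genes Flt3, Zbtb46, Xcr1, Clec9a and Cd209a and the plasmacytoid genes Siglech and Cox6a2. The B cell list summed to 26.8 CPM, against 15.1 in Gpnmb-high cells, 12.8 in monocytes and 13.3 in C1q-poor cells. The conventional dendritic cell list had UMIs in 32 of the cells and summed to 119.5 CPM, against 85.0, 248 and 106. The plasmacytoid list had UMIs in 68 of the cells and summed to 309 CPM, against 311, 135 and 423, and 149 of its 150 UMIs were of Bst2, which interferon also induces. Keratin 8 was at 245 CPM [203 to 293], against 105 in Gpnmb-high cells, 196 in monocytes, 229.8 in T cells and 1586 in cancer cells. Under stricter T cell, keratin and collagen limits it was at 117 CPM, among cells of 2000 to 6000 UMIs at 122 and with the gate after thinning at 130.1. Krt8 and Krt18 were both absent from 71 of the 123 cells, 6 cells had 5 or more UMIs of the pair, and the highest had 29. Among the cells split by depth into 4 groups, Krt8 was at 397 CPM in the deepest, against 166, 115 and 107 in the others. The 7-gene cancer cell list was found in 34 of the cells under study (27.6%) and in 27.4% of T cells, and it summed to 189.6 CPM against 102 in Gpnmb-high cells, 154 in monocytes and 148 in C1q-poor cells. Fibroblast genes Lum, Pdgfra and Pdgfrb were at 0, and the 6-gene list summed to 101 CPM against 90.3, 143 and 169. Endothelial genes summed to 159 CPM, with 33 of 77 UMIs in 1 cell, against 54.8, 44.9 and 11.4. Neutrophil genes summed to 78.3 CPM against 125, 506 and 295, with G0s2 and Cxcr2 at 0. The 5 red blood cell genes summed to 653 CPM, with 287 of 317 UMIs in 1 cell, against 227, 23.5 and 89.5. A doublet caller (Scrublet) marked 4 of the 123 cells (3.25%) and 633 (6.34%) of all cells past the limits. The part of these other cell types in the results below was not tested.

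Against the tumour monocytes, the C1q macrophages low in Gpnmb were higher in Ccl8, Ccl7, Vcam1, Mrc1 and Lgmn and lower in most genes of the monocyte list. Of 2769 genes with at least 50 UMIs over both groups, 191 were at least 2-fold higher (6.90%) and 228 at least 2-fold lower (8.23%), leaving out the genes that set the groups. The monocytes were chosen by their own marker genes, so genes that go with these are tied to that choice. In bulk sums such as these, more cells with RNA of a gene and more RNA per cell cannot be told apart, so counts of cells are given with the levels. Ccl8, a ligand for chemokine receptors of monocytes and lymphocytes, was at 10.7 CPM in monocytes, in 4 of 168 cells, a log2 ratio of 6.87 [5.78 to 8.64]. Ccl7, a ligand of Ccr2, was at 2135 CPM [2007 to 2269] in 88 cells against 49.1 in 13 monocytes. Vcam1, an adhesion molecule for integrins, was at 499 CPM in 49 cells against 6.41 in 2 monocytes. Mgl2, a galactose-binding lectin, was found in 34 cells at 138 CPM and in no monocyte, at least 21.5-fold higher when 3 UMIs are taken as the floor of the monocyte group.

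Of the 12 genes farthest above the monocytes, 4 rested on 1 cell for over 50% of their UMIs. These were Mucl1, whose 77 UMIs all came from 1 cell, the haemoglobin genes Hbb-bs (93.8%) and Hba-a1 (95.8%), and Retnla (67.7%). Among cells of 2000 to 6000 UMIs, Hba-a1 had 1 UMI in the cells under study and 2 in monocytes. The other 8 were spread over 34 or more cells each. Mrc1 was 21.9-fold higher and Clec10a 17.7-fold higher. Lgmn, a lysosomal protease, was at 1793 CPM in 115 cells against 186 in 56 monocytes. Selenop, a secreted selenium carrier, was at 1430.2 CPM in 94 cells against 145 in 46.

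The genes lower than in monocytes included several of the classical and the patrolling type. Vcan, a matrix proteoglycan made by classical monocytes, was at 41.2 CPM [25.2 to 63.7] against 624 [554 to 699], in 13 of 123 and 105 of 168 cells. Ace and Pou2f2 were at 6.18 and 16.5 CPM against 103 and 196, and Napsa was found in 14 cells against 88 monocytes. Hp, which encodes haptoglobin, had 4 UMIs in 3 cells against 105 in 67 monocytes, a log2 ratio of -4.60 [-6.67 to -3.37]. Slpi, a protease inhibitor, was at 199.9 CPM against 1375. Gzma was the exception among the lower genes, with all of its 86 UMIs in 1 monocyte and none in the cells under study. Of the 12 genes of the monocyte list, 9 had 50 UMIs, and 7 of these were at least 2-fold lower, beside 8.23% of all genes, with a median log2 ratio of -2.01 against 0.00 over all 2769 genes. Ccr2, the receptor that draws monocytes into tissue, was at 113 CPM [85.4 to 148] against 188 [151 to 232], with UMIs in 31 cells.

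**Figure D2:**
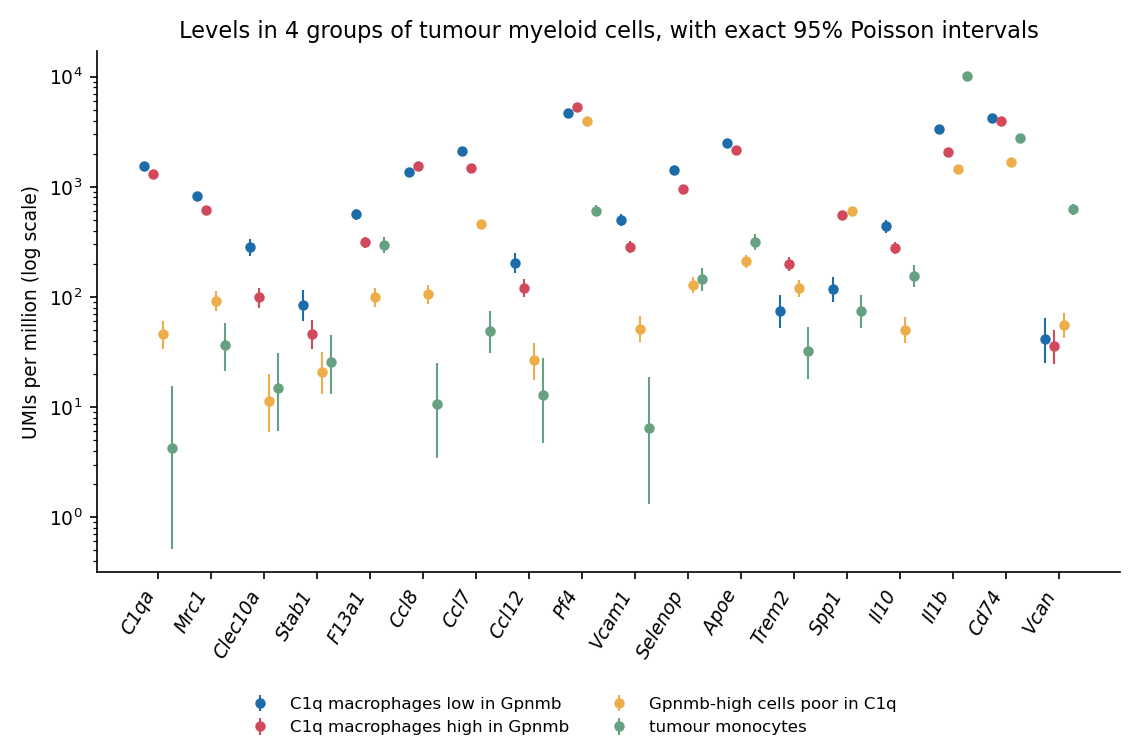
Levels of 18 genes in CPM (log scale) in the C1q macrophages low in Gpnmb and 3 other myeloid groups of the tumour library; points are sums over the cells of a group and bars are exact 95% Poisson intervals for counting error only. Mrc1, Clec10a, Ccl8, Ccl7, Vcam1, Selenop and Apoe lie at least 4-fold higher in the cells low in Gpnmb than in the monocytes and C1q-poor cells, while Vcan is highest in the monocytes.

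Scavenger receptors and genes of resident macrophages were among the genes higher than in monocytes. Of 16 genes on the list, 8 had 50 UMIs against the monocytes, 5 were at least 2-fold higher and none lower, beside 6.90% and 8.23% of all genes, and the median log2 ratio was 2.31. Against the Gpnmb-high cells the median was 0.11, beside 0.07 over all genes. Mrc1 was at 615 [566 to 668] CPM in the Gpnmb-high cells, a log2 ratio of 0.41 [0.22 to 0.60]. F13a1, the A chain of coagulation factor XIII, was at 563 CPM [498 to 633] against 313 [278 to 351], a log2 ratio of 0.85 [0.60 to 1.09]. Pf4, a platelet-type chemokine also made by macrophages, was at 4659 CPM [4469 to 4856] in 90 cells against 5259.7 in the Gpnmb-high cells, 609 in monocytes and 3974 in C1q-poor cells. Of these 4 myeloid groups, the monocytes had the lowest Pf4 level, and T cells and cancer cells were at 71.4 and 18.9 CPM.

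Receptors that mark long-lived tissue macrophages were found in few cells. Folr2, a folate receptor, had 21 UMIs in 16 cells, at 43.3 CPM [26.8 to 66.2], and every one of these cells also had Mrc1. Folr2 was at 46.2 CPM in the Gpnmb-high cells and had no UMI in monocytes or T cells. Cd163 was found in 8 cells, all with Mrc1, at 39.2 CPM [23.6 to 61.1] against 2.15 [0.260 to 7.77] in the Gpnmb-high cells. Stab1, a receptor for modified lipoproteins, was at 84.5 CPM [60.6 to 115] in 24 cells, 22 of them with Mrc1. Cbr2 was found in 12 cells, Siglec1 in 10, Lyve1 in 1 and Timd4 in 1. Vsig4, a complement receptor, and Cd209f had no UMI in 485247, which allows up to 6.18 CPM.

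Chemokines of the CC family were among the best covered genes. Of 16 ligands and receptors on the list, 13 had 50 UMIs against the monocytes, and Ccl2, Ccl6, Ccl7, Ccl8 and Ccl12 were at least 2-fold higher, beside 6.90% of all genes. The median log2 ratio of the list was 0.71. Against the Gpnmb-high cells the list median was 0.20, beside 0.07 over all genes. Ccl2 and Ccl7 had log2 ratios of 0.18 [0.05 to 0.32] and 0.52 [0.41 to 0.64] there. Ccl8 had one of -0.15 [-0.29 to -0.02], which turned to 0.10 and 0.28 under other settings. Ccl2 was at 1509 CPM [1401 to 1622] in 90 cells against 359 [307 to 417] in monocytes. Ccl12 was at 204 CPM [166 to 248] in 33 cells, with 31.3% of its UMIs in 1 cell, against 12.8 in monocytes and 120.4 in the Gpnmb-high cells. Ccl4 and Ccl5 were at 3213 and 682 CPM, and Ccl5 was lower than in monocytes (1087) and T cells (2458). Ccl17 and Ccl22, ligands of Ccr4, had no UMI. Ccr1 and Ccr2 were at 295 and 113 CPM, and Ccr7, the receptor for homing to lymph nodes, had 7 UMIs in 4 cells.

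Of 12 genes of the CXC chemokine family, 7 had 50 UMIs against monocytes, with Cxcl9 at least 2-fold higher and Cxcl3 at least 2-fold lower, beside 6.90% and 8.23% of all genes, and a median log2 ratio of -0.45. Cxcl2, a neutrophil attractant, was at 6131 CPM [5913 to 6355] in 111 cells, against 12247 in monocytes. Cxcl9, a ligand of Cxcr3 on T cells, was at 129.8 CPM [99.8 to 166] in 16 cells against 17.1 in monocytes and 3.81 in C1q-poor cells. Cxcl10, another ligand of Cxcr3, was at 657 CPM [587 to 734] against 972 in monocytes. Cxcl9 and H2-Ab1 were found together in 13 of the 16 cells with Cxcl9. Cxcl16 was at 329.7 CPM, and Cxcl13 had 1 UMI.

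Complement genes other than C1q were mixed. C3ar1 and C5ar1, the receptors for the C3a and C5a fragments, were at 218 CPM [179 to 264] and 221 CPM [181 to 266]. C3ar1 was 3.74-fold higher than in monocytes, while C5ar1 was at 248 CPM there. Cfp, which encodes properdin, was found in 64 cells at 235 CPM. C4b was at 72.1 CPM [50.2 to 100.3] in 16 cells against 20.4 [12.3 to 31.9] in Gpnmb-high cells. C3 was at 76.2 CPM, below the 169 of monocytes. C1ra and C1s1, the proteases that join C1q in the C1 complex, had 6 UMIs in 6 cells and 19 in 9, and 10 of the C1s1 UMIs came from 1 cell. C1s1 was at 194 CPM in cancer cells. The integrin chains Itgam and Itgax of complement receptors 3 and 4 were at 303 and 39.2 CPM, and Itgax was lower than in the Gpnmb-high cells by a log2 ratio of -1.72 [-2.54 to -1.05].

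Of 6 receptor genes for antibody, 3 were at least 2-fold higher than in monocytes, beside 6.90% of all genes, and the median log2 ratio was 0.95. Fcgr4, an activating receptor, was at 243 CPM [201 to 291] against 70.5 [48.5 to 99.0]. Fcgr2b, the inhibitory receptor, was at 694 CPM [622 to 773] in 102 cells against 346 [295 to 404]. Fcgrt, the neonatal receptor that recycles IgG, was at 227 CPM [186 to 273] against 17.1 in monocytes, 117 in Gpnmb-high cells and 11.4 in C1q-poor cells. Fcer1g, the shared signalling chain, was at 1719 CPM against 2099.5 in monocytes.

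Of 10 class II genes, which serve antigen presentation to CD4+ T cells, 9 had UMIs in the cells under study, and the numbers of cells differed widely. Cd74, the invariant chain, had UMIs in 107 cells, with a median of 10 and a highest value of 128, and was at 4243 CPM [4062 to 4431]. H2-Ab1 was found in 95 cells at 1278 CPM [1179 to 1382], against 878 in monocytes, 677 in C1q-poor cells and 72.9 in T cells. H2-DMb1 was found in 47 cells and Ciita, the regulator of class II genes, in 10, while H2-Oa had no UMI. Of the class II genes, 6 had 50 UMIs in each comparison, and their median log2 ratio was 0.67 against monocytes, 1.31 against C1q-poor cells and 0.16 against Gpnmb-high cells. The last value turned to -0.02 among cells of 2000 to 6000 UMIs and to -0.32 when the gate was set after thinning to 2000 UMIs, so no direction is given for it. Of the 95 cells with H2-Ab1, 63 had Mrc1. Class I genes had medians of 0.28 against monocytes and 0.27 against Gpnmb-high cells. B2m was found in all 123 cells.

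Interferon-response genes were higher than in each of the 3 myeloid groups by the list's median. Of 18 genes, 8 had 50 UMIs against monocytes and 6 were at least 2-fold higher, beside 6.90% of all genes. The median log2 ratio was 1.39, beside 0.00 over all genes. Against the Gpnmb-high cells, 1 of 12 genes, Ifit1, was at least 2-fold higher, beside 1.65% of all genes. The median there was 0.49, beside 0.07 over all genes. Rsad2, an antiviral enzyme, was at 1216 CPM [1119.7 to 1318] in 69 cells against 837 in Gpnmb-high cells and 363 in monocytes. Gbp2, a GTPase induced by interferon gamma, was at 375 CPM [323 to 434] against 220.5 and 124. Ifit1 was at 247 CPM [205 to 296] in 30 cells, with 16.7% of its UMIs in 1 cell. Irf7 was at 51.5 CPM against 75.3 in the Gpnmb-high cells, a log2 ratio of -0.53 [-1.27 to 0.13].

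Against the C1q macrophages high in Gpnmb, few genes differed by 2-fold. Of 3707 genes with 50 UMIs over both groups, 61 were at least 2-fold higher in the cells low in Gpnmb (1.65%) and 66 at least 2-fold lower (1.78%). The rule divided these groups by Gpnmb, Lpl and Mmp12, so genes that go with those 3 are tied to the choice of cells. The genes lower in the cells under study included Mmp13, a collagenase, at 72.1 CPM [50.2 to 100.3] in 17 cells against 612 [563 to 664] in 78. Atp6v0d2, a subunit of the proton pump of lysosomes, was at 26.8 CPM against 203, in 9 and 80 cells. Spp1, which encodes osteopontin, was at 117 CPM [89.0 to 152] against 557 [510.1 to 607], in 25 and 82 cells. Cd36, a fatty acid receptor, was at 146 CPM against 573, in 36 and 99 cells. Prdx1, a peroxidase, was found in most cells of both groups and was at 1053 CPM against 3286, a log2 ratio of -1.64 [-1.78 to -1.51]. Il7r was at 57.7 CPM against 215. Mmp9 and Ccl17 had no UMI in the cells under study and were found in 9 and 8 Gpnmb-high cells.

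Among the genes higher than in the Gpnmb-high cells, 5 of the 12 farthest from equal levels drew over 50% of their UMIs from 1 cell. These were Mucl1, Igfbp3 (57.6%), Ctla2a (59.7%), Saa3 (96.5%) and Hbb-bs (93.8%), and all of these but Igfbp3 were lower instead under at least 1 other processing setting, as was Cryab. The others were spread over 13 or more cells. Plac8, a gene of monocytes and of activated leukocytes, was at 324 CPM in 49 cells against 89.3 in 32, a log2 ratio of 1.85 [1.47 to 2.26]. Marcksl1, a regulator of the actin skeleton, was at 911 CPM in 85 cells against 291 in 80, a log2 ratio of 1.64 [1.42 to 1.87]. Clec10a was at 282 CPM [237 to 334] in 43 cells against 98.9 [79.8 to 121] in 47. Areg, a ligand of the epidermal growth factor receptor, was at 189.6 CPM in 18 cells against 60.2 in 17. Ccnd1 and Cavin1 were at 202 and 122 CPM against 59.1 and 37.6, and 27.6% of the Ccnd1 UMIs came from 1 cell. Of the 12 lower genes, Igkc, Igha and Cxcl5 drew over 50% of the UMIs of the Gpnmb-high group from 1 cell. Igkc and Igha had no UMI in the cells under study, and Cxcl5 was higher instead with the gate after thinning (26 UMIs against 0).

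**Figure D3:**
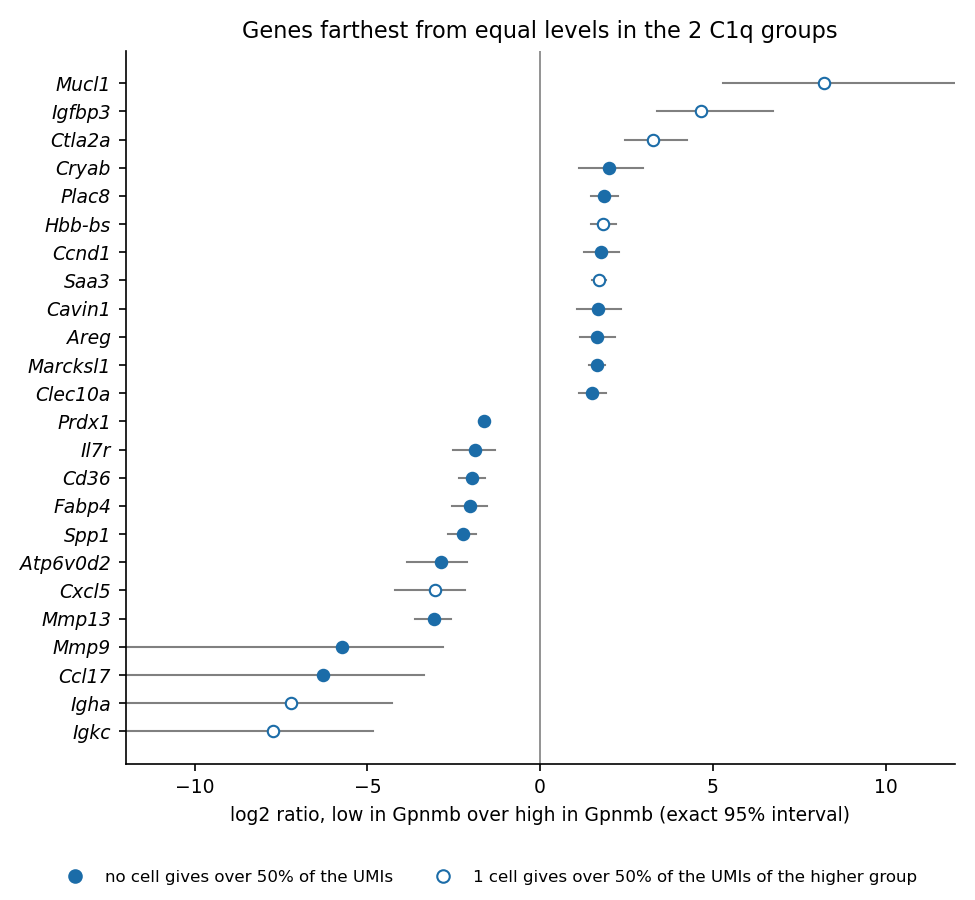
Log2 ratio of the level in C1q macrophages low in Gpnmb over that in C1q macrophages high in Gpnmb for the 12 genes farthest above and the 12 farthest below equal levels; lines are exact 95% intervals for counting error and run to the edge where 1 group had 0 UMIs. Open points are genes with over 50% of the higher group's UMIs in 1 cell, 5 above and 3 below.

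The lipid-associated genes had the median farthest from 0 of the 22 lists against the Gpnmb-high cells, and they go with the genes that divided the groups. Of 19 genes, 17 had 50 UMIs, 6 were at least 2-fold lower, beside 1.78% of all genes, and none was 2-fold higher, beside 1.65%. The median log2 ratio was -0.59, beside 0.07 over all genes. Trem2, a lipid receptor, was at 74.2 CPM [52.0 to 103] in 29 cells against 198 [170.3 to 229]. Fabp5, which carries fatty acids, was at 1455 CPM [1349.6 to 1566] against 3308, and Lgals3 at 1364 against 3224. The proteases Ctsl and Ctsd were at 820.2 and 2240.1 CPM against 1901 and 3911. Apoe, the lipid carrier, went the other way at 2516 CPM [2377 to 2661] against 2151 [2058 to 2247], but its log2 ratio of 0.23 became -0.10 among cells of 2000 to 6000 UMIs and -0.12 with the gate after thinning. Against the monocytes the same list was higher, with a median of 1.18, and Apoe was at 316 CPM there. Abca1 and Abcg1, which export cholesterol, were at 561 and 161 CPM against 639 and 184 in the Gpnmb-high cells and 235 and 81.2 in monocytes.

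Against the C1q-poor cells, the cells under study were higher in Mrc1, Ccl8 and Apoe and lower in Prdx1, Fth1 and Cd36. Of 4060 genes with 50 UMIs, 343 were at least 2-fold higher in the C1q macrophages low in Gpnmb (8.45%) and 268 at least 2-fold lower (6.60%). The limits divided these groups by C1q and by Gpnmb, Lpl and Mmp12, and only the C1q-poor cells had to have Lyz2. Genes that go with any of these are tied to the choice of cells. Mrc1 was at 91.4 [74.0 to 112] CPM in the C1q-poor cells, a log2 ratio of 3.16 [2.84 to 3.50], and Ccl8 was at 106 [86.9 to 127] in 22 cells, a log2 ratio of 3.70 [3.41 to 4.01]. Apoe was at 211 CPM, 11.9-fold lower than in the cells under study. Selenop, Vcam1 and Gatm were at 129, 51.4 and 11.4 CPM against 1430.2, 499 and 179. Folr2 had 1 UMI in the C1q-poor cells. The scavenger list had 5 of 9 genes at least 2-fold higher, beside 8.45% of all genes, and Cd36 and Marco at least 2-fold lower, with log2 ratios of -2.88 [-3.25 to -2.54] and -1.71 [-2.50 to -1.06]. The lipid-associated list had a median of -0.71, beside -0.01 over all genes. Of its 17 genes with 50 UMIs, 6 were at least 2-fold lower and 1, Apoe, at least 2-fold higher. These counts stand beside 6.60% and 8.45% of all genes. Fabp5 had a log2 ratio of -0.90 [-1.02 to -0.78]. Ctla2a, Mucl1, Retnla and Hbb-bs again drew over 50% of their UMIs from 1 cell, and Hbb-bs was lower instead under 3 other settings, while Ctla2a had at most 2 UMIs in the cells under study under 3 settings.

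The genes lower than in the C1q-poor cells included an antioxidant enzyme, a matrix enzyme and a chemokine. Prdx1 was at 11782 CPM in the C1q-poor cells against 1053. Fth1, a ferritin chain, was at 22187 CPM [21769 to 22609.8] in all 123 cells, against 75972 in the C1q-poor cells, 42579 in the Gpnmb-high cells and 26309 in monocytes. Cxcl5 was at 701 CPM in 38 C1q-poor cells against 20.6 in 3 of the cells under study. Met, the receptor for hepatocyte growth factor, was at 339.7 CPM against 24.7, and Hvcn1, a proton channel, at 266 against 18.5. Lox, which cross-links collagen, and Acpp had no UMI in the cells under study and were found in 27 and 46 C1q-poor cells. Mmp3 rested on 1 C1q-poor cell for 94.0% of its UMIs and had 1 UMI in the cells under study.

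Against all other cells of the library, of which most were cancer cells, 3437 genes had at least 20 UMIs in the cells under study and 50 in all. Of these, 1014 were at least 2-fold higher (29.5%) and 377 at least 2-fold lower (11.0%). The genes farthest above were Mucl1, Clec10a, Gbp2b, Mrc1, Rab3il1, Ly86, Retnla, Saa3, Ccl12, Aif1, Ccl8 and Gatm, of which Mucl1, Retnla and Saa3 drew over 50% of their UMIs from 1 cell. Ly86, a partner of an innate immune receptor, was at 272 CPM in 65 cells against 2.96 in all other cells. Aif1 was 82.1-fold and Rab3il1 121-fold higher.

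Among cytokine genes, Il10 and Il1b were well covered. Il10, an anti-inflammatory cytokine, was at 441 CPM [384 to 504] in 41 cells, against 279.6 in Gpnmb-high cells, 156 in monocytes and 50.4 in C1q-poor cells. Il1b was at 3355 CPM [3194 to 3522] in 86 cells, 3.04-fold lower than the 10192 of monocytes and 1.61-fold higher than the 2082 of Gpnmb-high cells. Tnf and Osm were at 486 and 544 CPM against 287 and 305 in Gpnmb-high cells. Igf1, a growth factor of tissue macrophages, was at 72.1 CPM [50.2 to 100.3] in 21 cells against 125 [103 to 149.6] in Gpnmb-high cells and 1 UMI in monocytes. Vegfa, a growth factor of blood vessels, was at 266 CPM against 329 in Gpnmb-high cells and 248 in monocytes. Tgfb1 was at 259.7 CPM against 545 in monocytes.

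Among genes that regulate T cells, Cd274, which encodes PD-L1, was found in 67 cells at 235 CPM [194 to 282] against 236 in Gpnmb-high cells and 355 in monocytes. Havcr2, which encodes TIM-3, and Cd80, a costimulatory ligand, were at 26.8 and 24.7 CPM against 113 and 124 in monocytes. Cd86 was at 72.1 CPM [50.2 to 100.3] against 124 in monocytes and 19.0 in C1q-poor cells. Nos2 had 5 UMIs, 3 of them in 1 cell, and Ido1 had 1.

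Of 9 semaphorin receptor genes, 4 had 50 UMIs against the Gpnmb-high cells and none differed by 2-fold, beside 1.65% of all genes higher and 1.78% lower. Nrp2, a receptor for class 3 semaphorins, was at 129.8 CPM [99.8 to 166] in 41 cells, against 137 in Gpnmb-high cells, 378 in C1q-poor cells, 85.4 in monocytes and 87.9 in cancer cells. Its co-receptor Plxna1 was at 30.9 CPM [17.3 to 51.0] in 13 cells against 84.7 in C1q-poor cells. Both genes were found together in 5 of the 123 cells. The difference of Nrp2 from the C1q-poor cells was a log2 ratio of -1.53 [-1.95 to -1.15]. Against monocytes its log2 ratio of 0.60 [0.01 to 1.21] turned to -0.14 with the gate after thinning, so no direction is given for it. Nrp1, Plxnb2 and Plxnd1 were at 57.7, 98.9 and 76.2 CPM. Alox12 and Alox15 had no UMI and Alox5 had 1, while Alox5ap, its partner protein, was at 399.8 CPM [346 to 460.2] against 809 in monocytes. Ptgs2, which starts prostaglandin synthesis, was at 1139.6 CPM [1047 to 1239] in 65 cells, against 544 in Gpnmb-high cells and 2114 in monocytes.

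Of 14 genes for receptors and bridging proteins of dying cells, 5 had 50 UMIs against monocytes, where Axl and Stab1 were at least 2-fold higher, beside 6.90% of all genes, and the median log2 ratio was 0.54. Axl was at 82.4 CPM [58.9 to 112] in 24 cells against 21.4 in monocytes and 81.8 in cancer cells. Gas6, which links Axl to dying cells, was at 76.2 CPM [53.7 to 105] in 24 cells and had no UMI in monocytes, but was at 53.8 CPM in cancer cells.

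Of 20 transcription factor genes, 15 had 50 UMIs against monocytes, 2 were at least 2-fold higher, Maf among them, and none was 2-fold lower, beside 6.90% and 8.23% of all genes. The median log2 ratio of the list was 0.23, beside 0.00 over all genes. Maf was at 422 CPM [367 to 484] in 67 cells against 57.7 in monocytes and 272 [239.6 to 308] in Gpnmb-high cells. Spi1, which encodes PU.1, was at 221 CPM [181 to 266] against 273, 204 and 186 CPM in monocytes, Gpnmb-high and C1q-poor cells. Mitf, a factor of lysosome genes, was at 26.8 CPM against 103 in C1q-poor cells, and Bhlhe41 had 3 UMIs against 151. Irf8 and Cebpa were at 245 and 59.8 CPM, at least 2-fold above the C1q-poor cells.

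Of 8 genes of iron and haem, 6 had 50 UMIs against the Gpnmb-high cells. None of them differed by 2-fold, beside 1.65% of all genes higher and 1.78% lower. Of 6 against monocytes, 2 were at least 2-fold higher, beside 6.90% of all genes. Against the C1q-poor cells, 1 of 7 was at least 2-fold higher and 2 at least 2-fold lower, beside 8.45% and 6.60% of all genes. The median log2 ratios against the Gpnmb-high cells, monocytes and C1q-poor cells were -0.23, 0.67 and -0.81. Slc40a1, the iron exporter ferroportin, was at 124 CPM [94.4 to 159] in 20 cells, with 31.7% of its UMIs in 1 cell, against 6.41 in monocytes. Hmox1, which degrades haem, was at 1591 CPM [1481 to 1707] in 89 cells against 1493, 1954 and 814 CPM in Gpnmb-high cells, C1q-poor cells and monocytes. Ftl1 was at 6807 CPM against 10546 in Gpnmb-high cells.

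Genes of the cell cycle were found in a minority of the cells. Mki67, a marker of cycling cells, had UMIs in 26 cells at 80.4 CPM [57.2 to 109.9], against 245 in T cells and 167 in cancer cells, and Top2a had 17 UMIs in 11 cells. Of 15 proliferation genes, 6 had 50 UMIs against the Gpnmb-high cells. None of them differed by 2-fold, beside 1.65% of all genes higher and 1.78% lower. Of 12 glycolysis and hypoxia genes with 50 UMIs against the Gpnmb-high cells, none passed 2-fold, beside the same shares of all genes. Their median log2 ratio was -0.34, beside 0.07 over all genes. Ldha was at 824 CPM against 865.

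Immediate-early and heat shock genes, which tissue dissociation is known to induce, were higher than in monocytes and C1q-poor cells. Of 12 such genes, 7 were at least 2-fold higher than in monocytes, beside 6.90% of all genes. The median log2 ratio was 1.09, beside 0.00 over all genes. Against the C1q-poor cells, 9 were at least 2-fold higher, beside 8.45% of all genes. The median there was 1.75, beside -0.01 over all genes. Against the Gpnmb-high cells the median was 0.37, and 0.09 among cells of 2000 to 6000 UMIs. Fos was at 923 CPM [839.7 to 1013] in 80 cells against 689, 312 and 203 CPM in Gpnmb-high cells, monocytes and C1q-poor cells. Egr1 was at 866 CPM against 485, 286 and 314. The part of dissociation in the other differences was not tested.

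**Figure D4:**
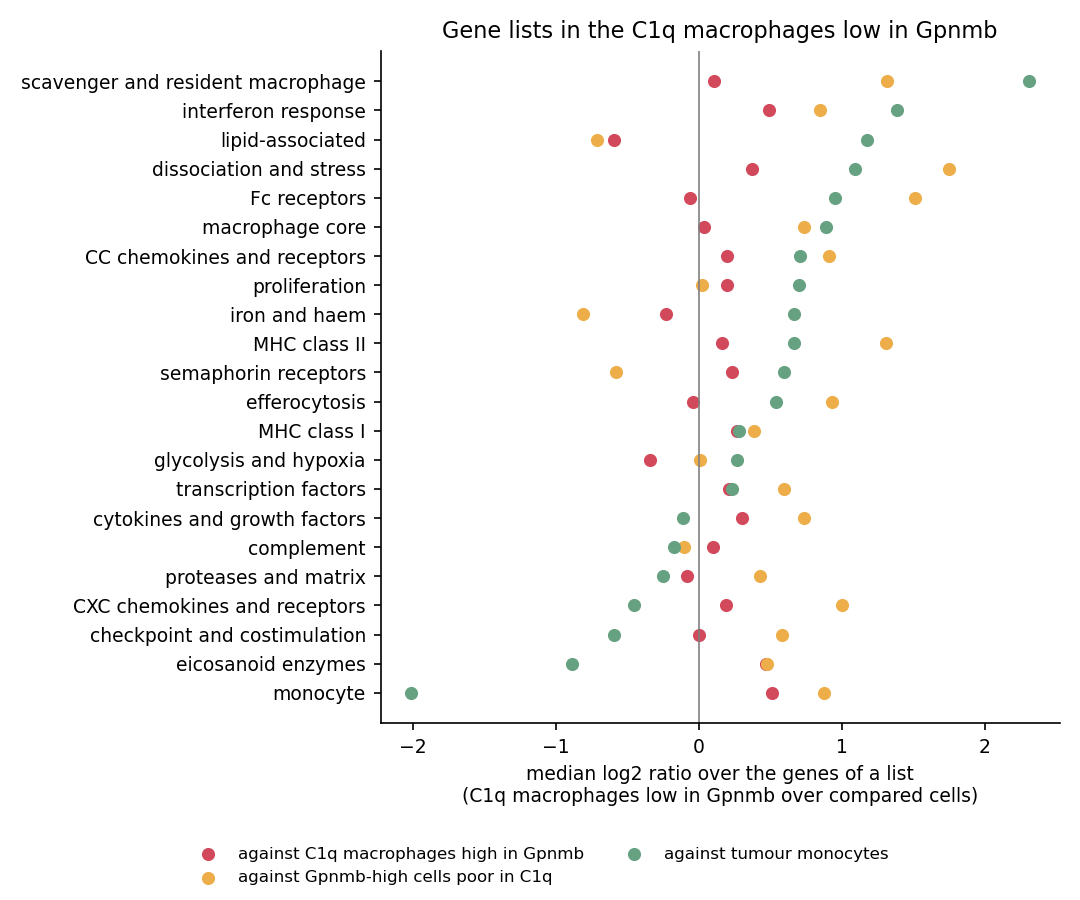
Median log2 ratio over the genes with 50 UMIs of 22 gene lists, for C1q macrophages low in Gpnmb over 3 other myeloid groups of the tumour library. The scavenger list lies at 2.31 and the monocyte list at -2.01 against monocytes, the lipid-associated list at -0.59 and -0.71 against both groups high in Gpnmb, and the interferon list at 0.49, 1.39 and 0.85 against the other C1q macrophages, the monocytes and the C1q-poor cells.

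The cells were not uniform. Leiden clustering of the 123 cells alone gave 3 clusters of 38, 33 and 52 cells, with median depths of 3869, 2756 and 3210 UMIs and median C1q counts of 11, 9 and 12. The genes that lead a cluster formed it, so they are described without a test. Cluster 0 (38 cells) was led by Krt8 and Slc40a1, with Ccl8, Il10 and Pf4 among its 15 leading genes. Its Ccl8 level was 2296 CPM in 22 cells and its Il10 level 745 CPM in 20, while Krt8 stood at 460.3 CPM and Krt18 at 247. Dcn, which encodes the matrix proteoglycan decorin, was at 175 CPM there, while Lum, Pdgfra, Pdgfrb, Col3a1 and Col6a1 had no UMI and Col1a1 and Col1a2 had 1 each. Cluster 1 (33 cells) was led by Vcan, Cxcl3, Areg, Inhba and Thbs1, and its Il1b level was 7989 CPM against 2061 in the other cells. Cluster 2 (52 cells) was led by Egr1, Fos and Jun, with Ccl12 and Maf also among its leading genes. Fos was at 1803 CPM in cluster 2 against 323 in the others.

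Within these clusters the marker genes were uneven. Mrc1 was at 833 [706 to 976], 501 [375 to 655] and 975 [842 to 1123] CPM in clusters 0, 1 and 2, in 31, 16 and 39 cells. Ccl8 was found in 4 of 33 cells of cluster 1, at 264 [176 to 382] CPM. H2-Ab1 was at 449 [357 to 558] CPM in cluster 0 and at 1690.4 and 1823 in clusters 1 and 2. Selenop was at 397 CPM in cluster 1 against 1337 and 2072, and Ccr2 was at 27.4 CPM in cluster 0 against 189 and 152. Apoe was at 3296 CPM in cluster 2 and 1492 in cluster 1. No cluster was given a cell type name, and cluster 0 carried keratin RNA beside its chemokines.

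**Figure D5:**
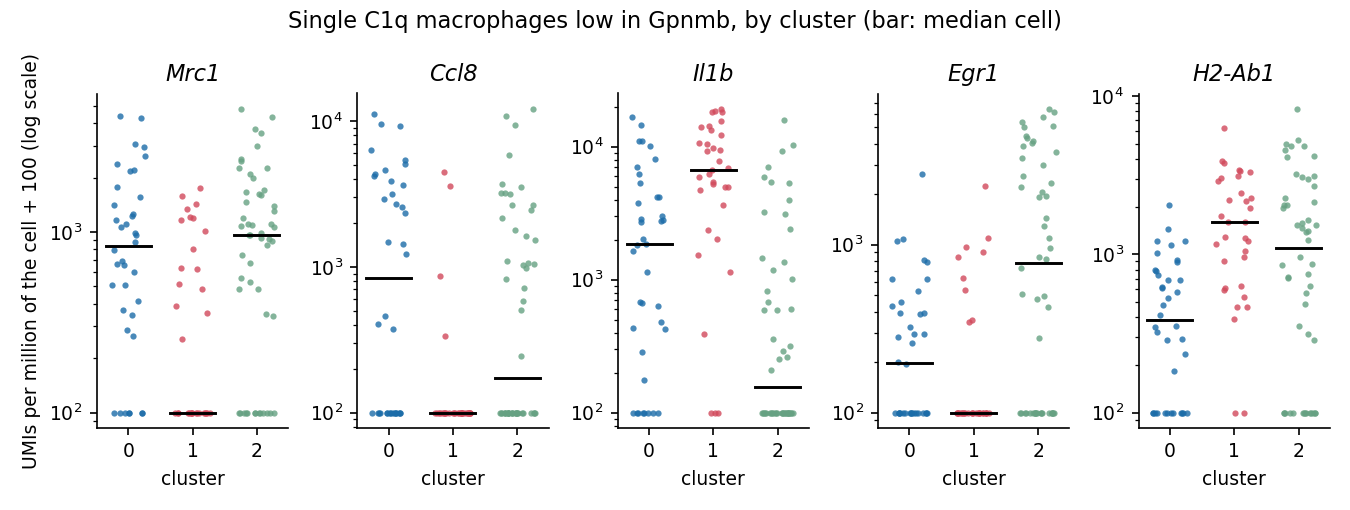
CPM of each cell plus 100 (log scale) for 5 genes in the 123 C1q macrophages low in Gpnmb, by Leiden cluster (38, 33 and 52 cells), with points shifted sideways at random; bars mark the median cell. Mrc1 and Ccl8 are lowest in cluster 1 and Il1b is highest there, Egr1 is highest in cluster 2, and cells without a UMI lie at 100.

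The rule set a fixed number of C1q UMIs for cells of every depth. The shallowest of 4 groups split by depth (31 cells of 731 to 2174 UMIs) had C1qa at 3195 CPM, against 1343, 1482 and 1324 in the deeper groups. Mrc1 was at 829.9 [593 to 1130.0], 953 [759 to 1181], 1016 [851 to 1204] and 644 [542 to 759] CPM from the shallowest to the deepest group. Ccl8 was at 1245, 849, 2360.1 and 1027 CPM. Cd74 ranged from 3567 to 5704 CPM. No steady trend with depth was seen in these 3 genes.

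The same rule found 13 of 11269 lymph node cells (0.115%), too few for levels to be given. The 2 libraries shared 47 cell barcodes, none of them among the 123 cells.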

How the data were processed

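Droplet single-cell RNA libraries, 1 of primary tumours and 1 of lymph nodes pooled from 6 mice, were deposited as counts, that is UMIs per gene and cell, which the authors made with Cell Ranger from reads aligned to GRCm38. The file headers name version 5.0.0 and the submitters' processing notes version 2.1.1, and the study's reporting summary names another, which was not settled here. Deposited counts covered 22620 genes. The deposited values are raw and hold none of the normalisation that the authors applied later.

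Cells were gated on raw UMIs, and the T cell, keratin and collagen limits were the only step against doublets in the main setting. Scrublet (expected rate 6%) was an alternative and marked 4 of the 123 cells. UMIs were summed over cells and divided by the total (CPM), with exact 95% Poisson intervals, exact intervals for log2 ratios and Clopper-Pearson intervals for shares. Ratios had 0.5 counts added and were ranked for genes with at least 50 UMIs, and against all other cells also 20 UMIs in the cells under study. The named genes were the 12 on each side whose interval bound lay farthest from equal levels (against all other cells, the 12 higher), the gate genes left out, and the genes of the lists. The cells and gene lists were chosen with earlier results of these data known. The C1q-poor comparison and the window of 2000 to 6000 UMIs were chosen after seeing the data. Other settings tried were other limits, thinning, gene filters and means of single-cell CPM. Of 14 glycolysis and hypoxia genes, 13 were matched. Some genes of the lists are not reported here. The script was checked on simulated data. Gene models were GENCODE M21, and promoter sequences came from RefSeq.

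With 1 library per tissue, intervals cover counting error only, and neither cells nor UMIs are replicates. Clusters were made in scanpy 1.11.5 with igraph 0.11.9 and anndata 0.12.19, sums and intervals in Python 3.11.15 with scipy 1.17.1, numpy 2.4.6 and pandas 2.3.3, and figures in matplotlib 3.10.9.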

Additional observations from a re-analysis of the deposited data

How the results depend on the processing

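No paired analysis was possible because each tissue was 1 library. Cells numbered 123 at the stated limits, 70 with at least 10 C1q UMIs and 76 among cells of 2000 to 6000 UMIs. Their share of 1.23% became 0.701% with at least 10 C1q UMIs, 0.961% with under 3 UMIs of Gpnmb, Lpl and Mmp12, and 4.27% among cells of 2000 to 6000 UMIs, which changes the denominator too. Against the Gpnmb-high cells, 61 genes higher by 2-fold became 11 with at least 200 UMIs per gene, 1571 with at least 1 UMI and 32 in the depth window, while 66 lower became 19, 984 and 27, and 22 with the gate after thinning. Against monocytes, 191 higher became 48 and 2947, and 228 lower became 68 and 1504, with 200 and 1 UMI per gene. Against C1q-poor cells, 343 higher became 113, 2247 and, in the window, 160, and 268 lower became 78, 1653 and 106. Filters on UMIs change how many genes enter.

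Directions against the Gpnmb-high cells turned for these log2 ratios. With the gate after thinning, the MHC class II median became -0.32, the monocyte list median -0.07, Apoe -0.12, Ccl8 0.28, Cd74 -0.28, Cxcl5 4.92 and Hbb-bs -3.55. In the depth window, the class II median became -0.02, Apoe -0.10, Cd74 -0.01, Cryab -1.01, Hbb-bs -0.08 and Saa3 -3.31. With under 3 UMIs of the Gpnmb genes, the CXC median became -0.12, Cd74 -0.03 and Mucl1 -5.83. With at least 10 C1q UMIs, Hbb-bs became -2.36. Ctla2a became -1.52 without cells marked by Scrublet, Ccl8 0.10 and Hbb-bs -0.22 at a mitochondrial limit of 10%, and Hbb-bs -2.03 with stricter T cell, keratin and collagen limits. Against monocytes, Nrp2 became -0.14 after thinning. Against C1q-poor cells, Hbb-bs became -1.42 with 10 C1q UMIs, -1.57 after thinning and -0.24 with the stricter limits. The cause was not tested. Other values changed sign with at most 3 UMIs in either group and give no direction. With 0 UMIs in both groups, where the added 0.5 counts alone set the ratio, they were 1.12 for Igha and for Igkc against Gpnmb-high cells with 10 C1q UMIs, 0.32 for Gzma against monocytes in the window and 0.41 for Mmp3 against C1q-poor cells after thinning. With 1 to 3 UMIs, they were -0.42 for Hba-a1 against monocytes and 2.01 for Mmp3 and -0.06 for Ctla2a against C1q-poor cells in the window, and -2.39 and -1.18 for Ctla2a against Gpnmb-high and C1q-poor cells after thinning. Of 22 list medians under 9 settings each, 188 of 198 values against the Gpnmb-high cells, 185 against monocytes and 181 against C1q-poor cells stayed within the median bounds of the counting intervals of their genes. The level of Mrc1 ranged from 818 to 993 CPM and that of Ccl8 from 1350 to 1841, while Krt8 ranged from 117 to 274.

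The 123 cells come from 1 pooled library, so no spread between mice is known. A gene without a UMI in them may still lie at up to 6.18 CPM. Median depths differed between the groups, and a gate fixed in UMIs is not the same gate for deep and shallow cells.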
